A study of Mus musculus with 6 samples.

Results

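The major urinary proteins are small lipocalins, a fold with a barrel that holds small hydrophobic molecules. In mice the liver makes most of them, the kidney passes them into urine, and the volatile pheromones they carry are released slowly from scent marks. Adult males make far more than females, because pulses of growth hormone act on hepatocytes through STAT5, and the genes lie side by side on chromosome 4 as a family of copies. Here 8 Mup genes were followed in the livers of F1 male mice: Mup3, Mup7, Mup10, Mup11, Mup12, Mup17, Mup20 and Mup21. Their rows were taken from the count table by Ensembl identifier, and they are 8 of 49 rows with a Mup symbol, among 53715 genes listed. The other rows are 14 further Mup genes and 27 Mup pseudogenes.

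The livers came from ICR mice, an outbred stock, at 8 weeks of age. Control F1 males (3 libraries, labelled as control for stress) were compared with FR F1 males (3 libraries, labelled as paternal famine). The labels do not spell out FR, while the title of the series speaks of paternal overdiet, so the group is called FR F1 throughout. Only the offspring were profiled, and the number of fathers or litters behind each group is unstated. Because nothing states that the libraries of a group came from separate animals, p-values measure the spread between these libraries. Library totals ran from 2279755 to 2730160 counts. All 19 hepatocyte markers were detected and tested, and none passed the test between groups (3 at an unadjusted p under 0.05). Control replicate 3 stood apart: 0.101% of its counts came from mitochondrially encoded genes, and in the remaining 5 libraries 0.282% to 0.352% did.

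Reads from near-identical copies can be assigned to any of them, and for this table neither the read length nor the treatment of such reads is stated in the sources used. The members fall into distinct and near-identical copies by sequence. Of all stretches of 100 bases in the coding transcript, 97.1% of those of Mup3, 95.5% of Mup21 and 61.2% of Mup20 occurred in no other gene's transcripts. The share was 40.6% for Mup17, 22.5% for Mup12, 18.4% for Mup7, 16.5% for Mup11 and 14.6% for Mup10. With stretches of 50 bases it was 84.4% for Mup3, 80.7% for Mup21 and 49.5% for Mup20. For the near-identical copies it then ran from 9.76% for Mup7 to 21.9% for Mup17, so Mup20 lay in between. The closest coding copy of Mup10 was Mup22 at 99.81% identity over aligned bases, that of Mup11 was Mup18 at 99.82%, and for Mup12 it was Mup11, tied with Mup1, at 99.63%. Mup3 and Mup21 were each other's closest copy at 96.32%. Values of Mup7, Mup10, Mup11, Mup12 and Mup17 are therefore uncertain as values of single genes, and that of Mup20 is so to a lesser degree. All these sequences are of the reference genome. How distinct the copies are in the outbred ICR mice is not known, also for Mup3 and Mup21. With fathers and litters unstated, inherited differences in these copies cannot be told apart from group.

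A window of 60 bases in coding exon 3 was read from the GENCODE M21 transcripts of the mm10 build. It was picked as the gapless window within 1 exon where most bases, 20, differed among the members, so it is not typical. It shows what a short read at this place can tell apart. Capitals mark bases that differ from the majority of the 8 members, and all are written 5′ to 3′ on the coding strand, which is the minus strand. The first sequence is shared letter for letter by Mup7, Mup10 and Mup17 and the second by Mup11 and Mup12.
Mup10 (chr4:60580693-60580752): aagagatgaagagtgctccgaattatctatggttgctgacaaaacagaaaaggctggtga
Mup11 (chr4:60660902-60660961): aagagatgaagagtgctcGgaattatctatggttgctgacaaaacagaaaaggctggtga
Mup20 (chr4:62052650-62052709): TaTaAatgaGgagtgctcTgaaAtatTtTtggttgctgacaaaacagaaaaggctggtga
Mup3 (chr4:62085973-62086032): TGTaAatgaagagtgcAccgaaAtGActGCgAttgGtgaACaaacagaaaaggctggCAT
Mup21 (chr4:62149368-62149427): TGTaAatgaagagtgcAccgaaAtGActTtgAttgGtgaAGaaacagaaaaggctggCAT
The 8 members gave 5 distinct sequences here. Mup11 and Mup12 differed from the majority at 1 base, Mup20 at 8, Mup21 at 16 and Mup3 at 17, so a read over this window could not separate Mup7, Mup10 and Mup17.

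Promoter windows of 300 bases were available from RefSeq (GRCm38.p6) for 6 of the 8 members, all but Mup12 and Mup20. The windows of Mup10, Mup11 and Mup21 are printed because Mup10 and Mup11 had 94.8% identical windows (over 271 aligned bases) and point estimates of opposite sign below, while Mup21 was 85.8% identical to Mup10 over 239. Capitals mark TATATAA, the letters of a TATA box, searched on both strands. In Mup10 a match on each strand overlaps.
Mup10 (chr4:60582106-60582405): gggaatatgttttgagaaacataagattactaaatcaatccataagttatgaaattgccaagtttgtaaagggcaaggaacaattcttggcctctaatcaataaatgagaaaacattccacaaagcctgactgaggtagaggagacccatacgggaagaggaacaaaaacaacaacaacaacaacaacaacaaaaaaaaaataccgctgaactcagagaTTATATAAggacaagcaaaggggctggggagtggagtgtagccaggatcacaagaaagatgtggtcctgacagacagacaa
Mup11 (chr4:60662346-60662645): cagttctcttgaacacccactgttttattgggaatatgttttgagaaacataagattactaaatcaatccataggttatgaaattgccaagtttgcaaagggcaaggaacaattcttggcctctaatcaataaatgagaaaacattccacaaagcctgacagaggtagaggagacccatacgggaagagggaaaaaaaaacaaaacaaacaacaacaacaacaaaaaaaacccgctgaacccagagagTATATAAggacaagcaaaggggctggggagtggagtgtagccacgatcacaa
Mup21 (chr4:62150792-62151091): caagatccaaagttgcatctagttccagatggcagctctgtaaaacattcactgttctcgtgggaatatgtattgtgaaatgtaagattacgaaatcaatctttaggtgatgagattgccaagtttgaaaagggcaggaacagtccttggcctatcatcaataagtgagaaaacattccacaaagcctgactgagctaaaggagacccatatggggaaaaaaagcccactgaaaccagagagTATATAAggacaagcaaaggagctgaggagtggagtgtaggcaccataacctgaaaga
TATATAA was found in 5 of the 6 windows, all but that of Mup7, and in 3.24% of 32851 promoters of the same length. The Mup7 window ends in letters that come before TATATAA in the Mup11 window, so the matching stretch of Mup7 was not covered. TTCNNNGAA, the letters STAT factors are known to bind, was found in 0 of the 6 and in 8.3% of all promoters. A match is a description of letters only.

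Of the 8 members 0 passed the test between FR F1 and control F1 (adjusted p under 0.05 over all genes, by the quasi-likelihood test of edgeR). At an unadjusted p under 0.05 there were 3, Mup10, Mup11 and Mup21. Over all 13022 genes tested, 109 passed, which is 0.837%, with 0.392% higher and 0.445% lower in FR F1, and 17.9% had an unadjusted p under 0.05. All 8 members passed the filter on low counts. Their median log2 fold change was 0.10, with 5 positive and 3 negative, against 0.00 over all genes tested. In bulk liver, fewer cells of a type and less RNA per cell cannot be told apart. In 3 members, Mup3, Mup10 and Mup21, every FR F1 library lay above every control, an arrangement found in 12.5% of all tested genes. In 0 members did all FR F1 libraries lie below, against 13.2% of all genes.

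**Figure D1:**
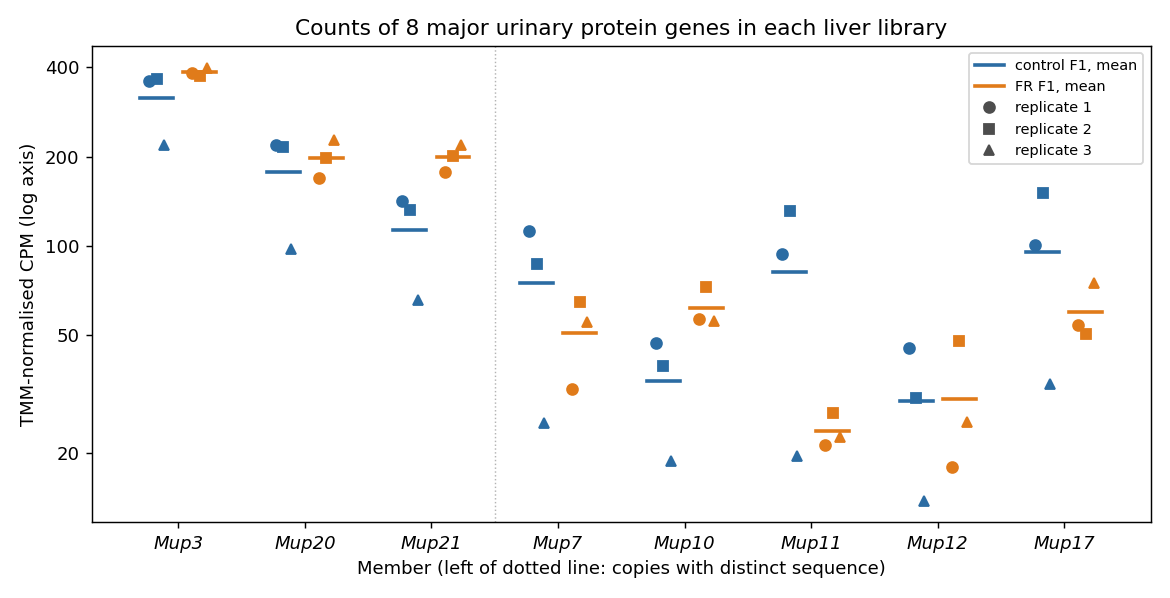
CPM (counts scaled to library size with TMM factors, log axis) of each member in each library; points are libraries with a shape for each replicate number, and horizontal lines are group means. Control replicate 3 is the lowest control for all 8 members, and FR F1 lies wholly above the controls for Mup3, Mup21 and Mup10.

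Among the distinct copies, Mup3 held the highest level for its length. Its CPM, counts scaled to library size with TMM factors, were 359, 366 and 219 in control replicates 1 to 3 and 383, 373 and 399 in FR F1. The FR F1 libraries lay just above controls 1 and 2, with control 3 well below. The means were 315 ± 83.0 and 385 ± 13.1 (SD, n = 3 each), a log2 fold change of 0.29 ± 0.19 (SE; edgeR adjusted p = 0.432). Its highest deposited value was 1.04 counts per base of its longest transcript, the 9th highest of 21769 protein-coding genes, of which 13 exceeded 1 and the highest reached 1.16. The highest values of Mup21 and Mup20 were 0.802 and 0.599, ranks 39 and 160. Whether this narrow upper end of values bears on the fold changes, levels, shares or ratios of these members was not tested.

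Mup20 encodes darcin, the protein in male urine to which females are attracted. Its CPM were 219, 216 and 97.4 in the controls and 169, 197 and 228 in FR F1. The groups overlapped, with 2 of 3 FR F1 libraries below controls 1 and 2. The means were 177 ± 69.3 and 198 ± 29.4 (SD, n = 3 each), a log2 fold change of 0.16 ± 0.29 (SE; edgeR adjusted p = 0.783).

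Mup21, the closest relative of Mup3, had CPM of 142, 133 and 65.6 in the controls and 177, 200 and 219 in FR F1. All FR F1 libraries were above all controls. The means were 113 ± 41.6 and 199 ± 20.97 (SD, n = 3 each). Its log2 fold change of 0.81 ± 0.27 (SE) did not pass after adjustment (adjusted p = 0.189 by edgeR).

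Of the near-identical copies, Mup10 had CPM of 46.8, 39.2 and 18.8 in the controls and 56.5, 72.6 and 55.8 in FR F1. Again every FR F1 library exceeded every control. The means were 34.9 ± 14.5 and 61.6 ± 9.51 (SD, n = 3 each), and the log2 fold change was 0.82 ± 0.31 (SE; edgeR adjusted p = 0.231).

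Mup11 went the other way in its point estimate. Its CPM were 94.1, 131 and 19.6 in the controls and 21.3, 27.3 and 22.6 in FR F1. Controls 1 and 2 were far above all FR F1 libraries, and control 3 was below all of them. The means were 81.5 ± 56.6 and 23.7 ± 3.14 (SD, n = 3 each), a log2 fold change of -1.77 ± 0.57 (SE; edgeR adjusted p = 0.183). Without control replicate 3 the log2 fold change was -2.24 and the adjusted p 0.0035 by edgeR, so Mup11 was called when that 1 library was left out.

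Mup7, Mup12 and Mup17 overlapped between groups. Mup17, the most distinct of the near-identical copies, had CPM of 101, 151 and 34.1 in the controls and 54.2, 50.5 and 75.1 in FR F1, a log2 fold change of -0.66 ± 0.46 (SE; edgeR adjusted p = 0.459). Mup7 had CPM of 112, 87.0 and 25.3 against 32.9, 64.5 and 55.4, a log2 fold change of -0.55 ± 0.49 (SE; edgeR adjusted p = 0.563). For both, controls 1 and 2 were above every FR F1 library and control 3 was below every one. Mup12 had CPM of 45.1, 30.6 and 13.8 against 17.9, 47.5 and 25.4, a log2 fold change of 0.03 ± 0.47 (SE; edgeR adjusted p = 0.977).

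**Figure D2:**
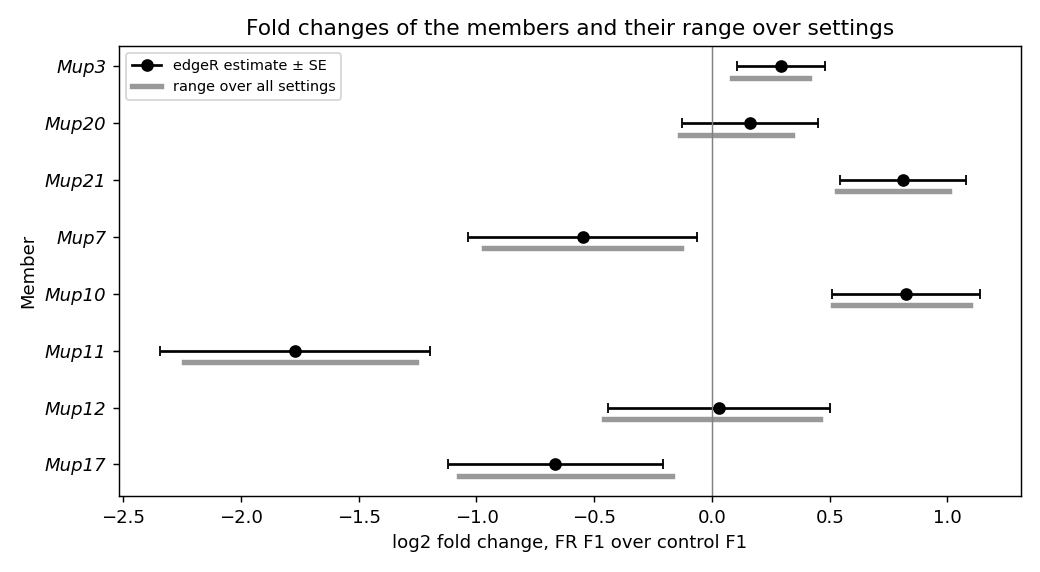
Log2 fold change of each member, FR F1 over control F1, with black points and bars for the edgeR estimate ± SE and grey bars for the range over all alternative settings. Mup11 ranges from -2.24 to -1.26, while Mup12 and Mup20 take both signs.

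Control replicate 3 was low across the family, by different amounts. Relative to the mean of controls 1 and 2 its CPM was 0.604 for Mup3, 0.478 for Mup21, 0.448 for Mup20 and 0.437 for Mup10. It was 0.365 for Mup12, 0.271 for Mup17, 0.255 for Mup7 and 0.174 for Mup11. Among the 8 members the distinct copies were thus the least low and Mup11 the lowest. Among the other Mup genes tested, the value ran from 0.0787 for Mup16 to 0.841 for Mup1. Mup1 was higher in control 3 than in control 1 (145 against 114 CPM). Control replicate 3 was also low in mitochondrially encoded counts. The part of its quality in these values was not tested. Without it, log2 fold changes were 0.08 for Mup3, -0.14 for Mup20, 0.53 for Mup21, 0.51 for Mup10, -0.97 for Mup7, -1.07 for Mup17 and -0.32 for Mup12, and of these none was called. Leaving out other single libraries also moved the estimates. Mup17 was at -0.17 without control replicate 2. Mup7 was at -0.13 without control replicate 1 and -0.31 without FR replicate 1. Mup20 was at 0.34 without control replicate 1, 0.32 without control replicate 2, 0.27 without FR replicate 1 and 0.05 without FR replicate 3. Of the single libraries left out, only control replicate 3 reversed the sign of Mup20.

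A sum over the family does not depend on which copy a read was given to, as long as it was given to one. All 49 Mup rows together came to 1662, 1960 and 781 CPM in the controls and 1358, 1601 and 1700 CPM in FR F1. The FR F1 libraries lay between control 3 and control 2. The means were 1468 ± 613 and 1553 ± 176 (SD, n = 3 each), a log2 ratio of 0.08, smaller than the SD between replicates of 0.514 on that scale. Without control replicate 3 the log2 ratio was -0.22. The rows held 0.0792% of counts in control 3 (95% Wilson interval 0.0759% to 0.0827%, counting error only) and 0.136% to 0.191% in the other libraries. The 3 distinct members summed to 720, 714 and 382 CPM in the controls and 729, 771 and 846 in FR F1, and the 5 near-identical members to 398, 439 and 112 against 183, 262 and 234.

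As a share of all Mup counts, Mup21 and Mup10 were higher and Mup11 lower in every FR F1 library than in every control. These shares were looked at after the values had been seen and were not tested. In CPM, 12.5% of all tested genes had every FR F1 library above every control and 13.2% had every one below. No such background was computed for shares, so how unusual these members are is not known. Mup21 held 8.53%, 6.76% and 8.40% of all Mup counts in the controls and 13.02%, 12.5% and 12.86% in FR F1. Its FR F1 shares lay above every control share, and the nearest 95% Wilson intervals were 7.27% to 9.68% in control 3 and 11.55% to 13.52% in FR replicate 2. Mup10 held 2.82%, 2.001% and 2.41% in the controls and 4.16%, 4.54% and 3.28% in FR F1. It too was higher in every FR F1 library, although the intervals of control 1 (2.34% to 3.39%) and FR replicate 3 (2.78% to 3.87%) overlapped. Mup11 held 5.66%, 6.67% and 2.51% in the controls and 1.57%, 1.70% and 1.33% in FR F1. Its share was lower in every FR F1 library, but the intervals of control 3 (1.91% to 3.28%) and FR replicate 2 (1.36% to 2.13%) overlapped. The shares of the other 5 members overlapped between groups.

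**Figure D3:**
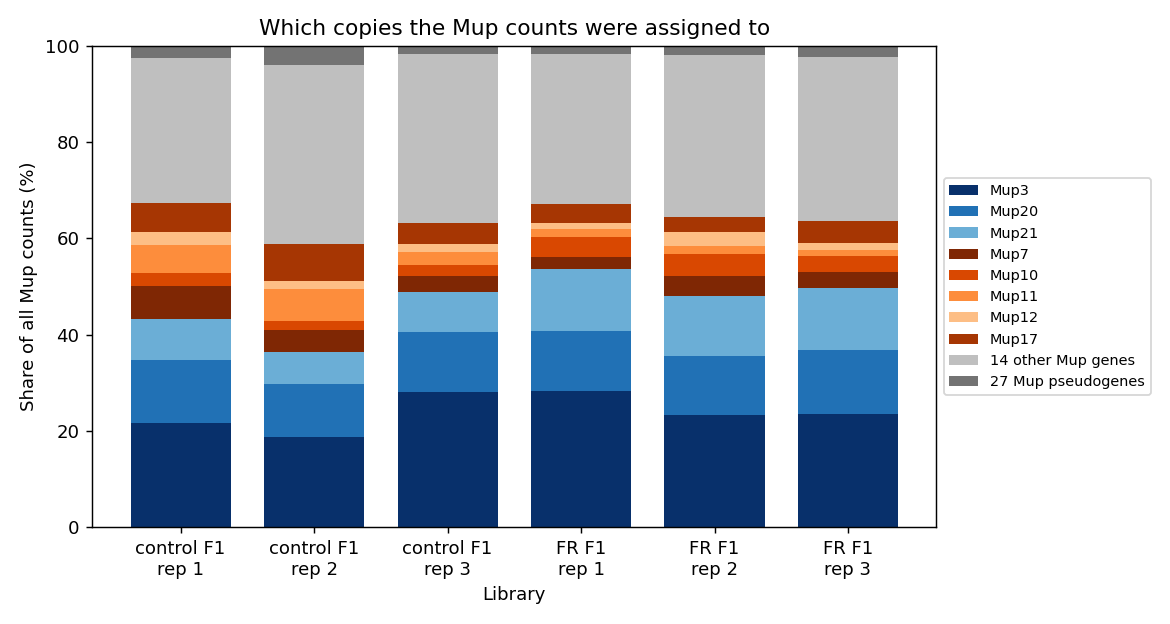
Share of all Mup counts (%) held by each member, by the 14 other Mup genes and by the 27 pseudogenes, 1 stacked bar for each library. The light blue Mup21 band is wider in the 3 FR F1 libraries (12.5% to 13.02%) than in the controls (6.76% to 8.53%).

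Ratios of raw counts between members need no scaling to library size. Mup21 counts divided by Mup20 counts were 0.648, 0.614 and 0.673 in the controls and 1.04, 1.02 and 0.959 in FR F1. Both genes are grouped here as distinct copies, although only 49.5% of the 50-base stretches of Mup20 occurred in no other gene's transcripts. In this ratio control 3 sat with the other controls. Mup11 counts divided by Mup10 counts were 2.01, 3.33 and 1.04 in the controls and 0.378, 0.376 and 0.404 in FR F1. These ratios were picked for their difference; over all 28 pairs of members, the ratio did not overlap between groups in 17, including all 7 pairs with Mup11, 6 of 7 with Mup10 and 5 of 7 with Mup21. Over every pair of the 12938 tested genes with counts in all libraries, 25.5% of ratios did not overlap. Pairs share members, so the 17 are not independent, and how unusual their number is was not tested. The 5 near-identical members divided by the 3 distinct ones gave 0.553, 0.614 and 0.292 in the controls and 0.251, 0.341 and 0.277 in FR F1, with control 3 inside the FR F1 range.

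Per kilobase of transcript, mean CPM over the 6 libraries was 356 for Mup3, 230 for Mup21, 202 for Mup20, 83.7 for Mup17, 60.8 for Mup7, 56.5 for Mup11, 52.1 for Mup10 and 32.5 for Mup12. Mup3 was above Mup21 in 6 of 6 libraries. Mup20 was above Mup21 in all 3 controls and below it in all 3 FR F1 libraries. The ranges over libraries overlapped for every neighbouring pair in this order.

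Of the 14 other Mup genes, 12 were tested and none passed, with 3 at an unadjusted p under 0.05, 5 positive, 7 negative and a median of -0.62 on the log2 scale. They ran from -2.61 for Mup16 to 0.88 for Mup9, which is tied with Mup13 and Mup18 as the closest copy of Mup17. Of the 27 pseudogenes, 3 were tested and none passed, with 1 at an unadjusted p under 0.05. The plot of fold change against sequence distinctness sets these genes beside the members.

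**Figure D4:**
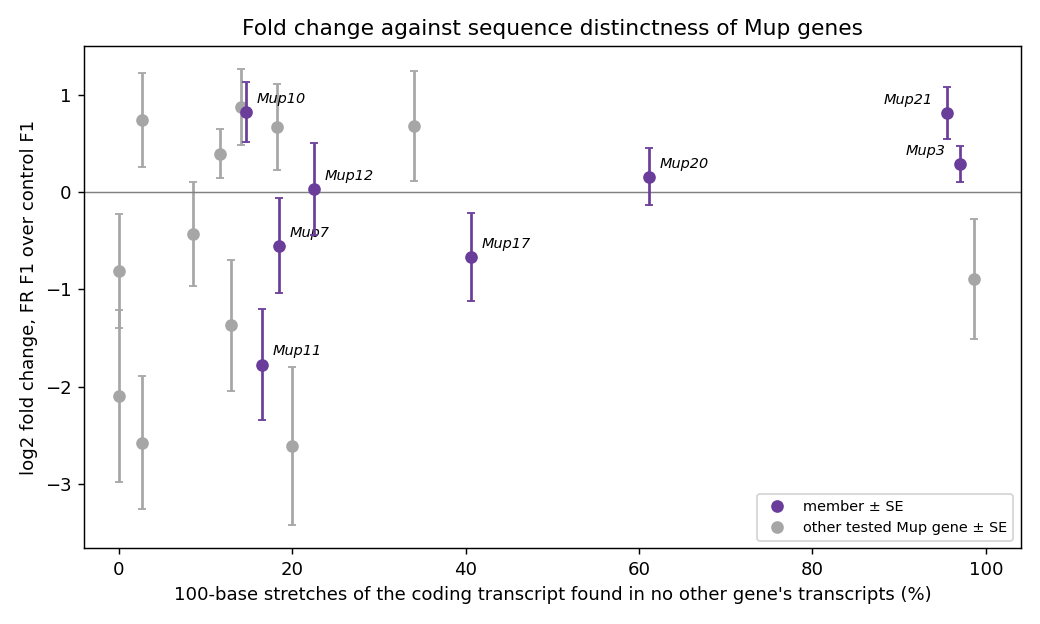
Log2 fold change (FR F1 over control F1, ± SE) of each tested Mup gene against the share (%) of 100-base stretches of its coding transcript found in no other gene's transcripts; purple points are the members and grey points the other Mup genes. Mup21 and Mup3, with over 95% such stretches, are above 0, Mup5, the grey point at the far right, is below (-0.89 ± 0.62), and genes with few such stretches lie on both sides of 0.

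The members lie on the minus strand of chromosome 4 in mm10, from Mup7 (60066469 to 60070475) through Mup10 (60578260 to 60582199), Mup11 (60658466 to 60662411), Mup12 (60737383 to 60741326) and Mup17 (61591929 to 61595871) to Mup20 (62050234 to 62054158), Mup3 (62083476 to 62087342) and Mup21 (62147932 to 62150863). The distinct copies Mup20, Mup3 and Mup21 are thus neighbours at one end. None of the 3 nearest tested genes on either side passed: E130308A19Rik, Inip and Snx30 before the family and Slc31a2, Fkbp15 and Slc31a1 after it. Fkbp15 had the largest estimate of these, -0.56 ± 0.17 (SE; edgeR adjusted p = 0.170). Inside the family 2 other genes were tested, and Gm12909, between Mup3 and Mup21, had 36.2 ± 1.87 CPM in controls and 59.8 ± 7.05 in FR F1 (SD, n = 3 each; log2 fold change 0.72 ± 0.16 SE, adjusted p = 0.0942 by edgeR).

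Genes of the pathway that drives Mup transcription did not pass either. Of 29 tested genes of growth hormone to STAT5 signalling and known Mup regulators, 0 passed by edgeR and 6 had an unadjusted p under 0.05 and the median was 0.18 on the log2 scale. The most abundant were Igf1, the growth factor induced by growth hormone, Ghr, the receptor of that hormone, and Hnf4a, a hepatocyte transcription factor. Their log2 fold changes were 0.46 ± 0.33, 0.40 ± 0.22 and -0.35 ± 0.10 (SE). Igf1 CPM were 946, 728 and 311 in the controls and 938, 973 and 818 in FR F1. Those of Ghr were 735, 464 and 378 against 699, 750 and 631. For both genes control 1 lay within the FR F1 range and control 3 was the lowest. Of 15 tested male-biased liver genes, 0 passed by edgeR and 5 had an unadjusted p under 0.05. Their median was 0.04, with 8 positive and 7 negative. The most abundant were C4a (-0.73), Cyp2d9 (-0.10) and Selenbp2 (-0.24), which are all among the negative ones. Of 6 tested female-biased genes, out of 24, 0 passed and 2 had an unadjusted p under 0.05, with a median of -0.42; the most abundant were Trim24, Fmo2 and Atp6v0d2.

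Among the other lipocalins, relatives of the members by fold, 10 were tested, and 3 fell in FR F1 and none rose. Lcn2, which binds bacterial siderophores, had CPM of 205, 268 and 207 in the controls and 34.03, 16.95 and 44.3 in FR F1, a log2 fold change of -2.84 ± 0.31 (SE; edgeR adjusted p = 0.0145). The acute-phase proteins Orm2 (-2.10 ± 0.33, adjusted p = 0.0385 by edgeR) and Orm3 (-2.51 ± 0.40, adjusted p = 0.0404) fell too. The most abundant, Ambp (-0.20), Rbp4 (0.02) and C8g, did not pass. Whether the members differ from these lipocalins was not tested.

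Markers of other liver cells were set beside the members. All 16 sinusoidal endothelial markers were positive on the log2 scale (median 0.97), none passed by edgeR (12 at an unadjusted p under 0.05), and their summed CPM was 592 to 949 in controls and 1240 to 1467 in FR F1. All 15 stellate cell and fibroblast markers were positive with a median of 0.98, 1 (Pdgfra) passed, and their sum was 407 to 630 against 916 to 1133 CPM. Of 14 Kupffer cell markers 13 were positive, with a median of 0.42, and their sums overlapped. No marker of these lists was at 0 in all libraries. Hepatocyte markers had a median of -0.18, with 6 positive and 13 negative. In 4 of the 19, every FR F1 library lay below every control, against 13.2% of all tested genes. Their sum was 11171, 11235 and 9356 CPM in control replicates 1 to 3 and 9422, 9399 and 10229 CPM in FR F1. The groups overlapped, with controls 1 and 2 above every FR F1 library and control 3 below every one. The part of cell makeup in the Mup values was not tested.

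The genes most like the summed Mup CPM over the 6 libraries, among 9907 compared, were Fam98a (Pearson r of log2 values 0.984), Phospho2 (0.984), Pdia3 (0.982), Morf4l2 (0.979) and Clcn4 (0.977). The points share libraries and depth, and all 5 genes were lowest in control replicate 3.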

How the data were processed

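Polyadenylated liver RNA was sequenced as 6 libraries, for which the authors deposited raw counts in a single table. Build mm10 and the tools HTSeq, STAR, DESeq2 and StringTie come from the submitters' processing notes; no source used here gives the annotation, the strand setting or the handling of reads shared between genes. Per the labels, Trizol was used for RNA, and a TruSeq DNA kit is named for the libraries.

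Symbols came from GENCODE M21 (53620 of 53715 identifiers matched). The test on counts was that of edgeR 4.0.16 under R 4.3.3 (filterByExpr with a minimum count of 10 and total of 15, TMM, quasi-likelihood F test, two-sided, Benjamini-Hochberg adjusted p under 0.05). CPM are TMM-scaled; SE is the log2 fold change over the square root of F. The common dispersion gave a replicate coefficient of variation of 22.4%. Data for FR F1 against control F1 were simulated with that dispersion for every gene (12804 genes in the fit). There 37 of 100 genes changed 2-fold and 98 of 100 changed 4-fold were called, and 4 of 12607 unchanged genes. Replicates differed beyond counting noise (chi-square per degree of freedom 4.01 to 13.4), so no library was a second count of another in its group. This does not show that they came from separate animals. Sequences were aligned with MAFFT 7.526. Alternatives used DESeq2 1.42.0 and limma 3.58.1. All 8 members were named, with list genes named if called or among the 3 most abundant, the 5 genes most like the summed family (mean CPM of at least 10) and the nearest neighbours; Mup16, Mup9, Gm12909 and the pair ratios were chosen after values were seen. The members and lists were chosen with earlier results of these data known. No reference protein sequences were used here.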

Additional observations from a re-analysis of the deposited data

How the results depend on the processing

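The number of genes called over the whole table was 109 and came to 457 with DESeq2, 1199 with limma-voom and sample weights, 1251 without a filter on low counts and 21 with the replicate block; leaving out 1 library gave 7 (without FR replicate 1) to 651 (without control replicate 1). The number of members called was 0 and came to 1 with DESeq2, 1 with sample weights (Mup11 both times) and 4 without a filter (Mup10, Mup11, Mup17 and Mup21); leaving out 1 library gave 0 to 1, the 1 being Mup11 without control replicate 3. The causes were not tested. The adjusted p of Mup11 ran from 2.58e-11 to 0.449 over the alternatives. With sample weights the log2 fold change was -0.15 for Mup12 and -0.030 for Mup20, both of the opposite sign; leaving out 1 library gave -0.46 to 0.46 for Mup12 and -0.14 to 0.34 for Mup20. The other 6 members kept their direction under all alternatives run. The summed log2 ratio was 0.09 to 0.10 under other scalings, 0.13 over the 8 members, and -0.22 to 0.35 leaving out 1 library. The main test did not pair libraries by replicate number. Deviations of same-numbered libraries correlated at -0.02, 0.11 and 0.15. Control 1 correlated best with FR replicate 2, while controls 2 and 3 correlated best with the FR library of their own number. With 3 libraries a group, these correlations cannot settle whether the numbers mark pairs. With the replicate block 0 members were called. With 3 libraries a group and 36 to 1025 counts for each member in a library, precision is limited. In simulated data 37 of 100 genes changed 2-fold were called. The simulation gave every gene the same common dispersion, so it does not measure the chance of a call for the members themselves.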
